A study of Mus musculus with 10 samples.

Results

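The creatine kinase and phosphotransfer genes Ckm, Ckmt2, Ckb, Slc6a8, Ak1 and Ak3 were examined in left ventricular RNA from control mice and from a mouse model of HFpEF (heart failure in which the ejection fraction is preserved). These 6 genes were selected by symbol from the 29564 genes listed, and all 6 passed the filter on low counts that left 13307 genes for testing. All 10 mice were wild-type (WT) C57BL6 (C57BL/6J in the study's methods) males labelled as given vehicle (a mixture with 5% DMSO). Daily dosing at 10 mL/kg over 6 to 9 weeks is stated for efficacy tests across the study's HFpEF models, and not for controls. The study also sequenced RNA of hearts taken hours after 1 dose, and which dosing these mice had was not established here. The 5 HFD+mTAC mice underwent moderate transverse aortic constriction (mTAC), which narrows the aorta and loads the ventricle with pressure, at 11 weeks of age. They were then fed a high-fat diet (HFD, 60% of kilocalories from fat) until death, with 16 weeks of diet and load before the vehicle. The 5 control mice were not operated on and ate chow with 10% of kilocalories from fat. Diet and operation were applied together in this comparison, so their parts in any difference cannot be told apart. Each library came from 1 mouse.

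A heart muscle cell makes most of its ATP in mitochondria and uses it at the myofibrils and ion pumps. Creatine kinases pass the high-energy phosphate of ATP to creatine and back, so that phosphocreatine carries it through the cell. Adenylate kinases interconvert ATP, ADP and AMP and thereby set the AMP signal that activates the energy sensor AMPK. In the failing and the overloaded heart, a lower creatine kinase activity and a relative gain of the brain-type isoform are well known from earlier work.

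In HFD+mTAC hearts, 0 of the 6 genes passed edgeR's quasi-likelihood test at an adjusted p below 0.05, whereas 0.0601% of all genes tested did (0.0451% higher and 0.015% lower). DESeq2 also called 0 of the 6, against 120 of the 13307 genes tested. In edgeR, 1 of the 6 had an unadjusted p below 0.05, as had 8.26% of all genes tested. All 6 genes overlapped between the groups in CPM (counts scaled to library size with edgeR's TMM factors), while 1.96% of all genes did not. Ckb, the brain-type creatine kinase, had the largest difference, with 0.735 times the control level in HFD+mTAC mice, but its adjusted p was 0.319. Ckmt2 and Ckm, the mitochondrial and muscle-type creatine kinases that dominate in the heart, were at 0.915 and 0.926 times the control level, and neither passed. The adenylate kinase genes Ak1 and Ak3 were at 1.00 and 0.996 times the control level, with 95% intervals of 0.883 to 1.14 and 0.895 to 1.11. Of the 6 estimates, 4 were below 0 and 2 above, with a median log2 fold change of -0.06 against 0.0016 over all genes tested.

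The promoters of the 3 creatine kinase genes are shown because these genes encode enzymes of the same reaction, and Ckb was read at a far lower level than Ckm and Ckmt2. Each sequence runs from 250 bases before to 50 bases after a RefSeq start site of GRCm38.p6 and is written 5′ to 3′ on the strand of the gene. Ckm lies at chr7:19410844-19411143 on the plus strand, Ckmt2 at chr13:91876836-91877135 on the minus strand and Ckb at chr12:111672289-111672588 on the minus strand. Capitals mark every match, on either strand, to the TATA box spellings TATAAA or TATATAA, the CCAAT box (CCAAT), the GC box (GGGCGG) and the receptor half-site written AAGGTCA, and no match shown overlaps another.
Ckm: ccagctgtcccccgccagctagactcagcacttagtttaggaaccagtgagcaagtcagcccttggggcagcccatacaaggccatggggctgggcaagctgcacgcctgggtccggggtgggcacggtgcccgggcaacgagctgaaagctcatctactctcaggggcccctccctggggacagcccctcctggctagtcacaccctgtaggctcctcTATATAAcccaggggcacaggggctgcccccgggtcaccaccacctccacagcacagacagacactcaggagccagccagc
Ckmt2: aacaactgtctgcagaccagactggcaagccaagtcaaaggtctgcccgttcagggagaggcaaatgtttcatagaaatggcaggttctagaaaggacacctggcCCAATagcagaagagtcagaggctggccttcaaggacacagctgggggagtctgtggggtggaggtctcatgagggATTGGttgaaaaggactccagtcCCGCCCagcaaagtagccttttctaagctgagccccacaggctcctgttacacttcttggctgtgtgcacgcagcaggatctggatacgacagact
Ckb: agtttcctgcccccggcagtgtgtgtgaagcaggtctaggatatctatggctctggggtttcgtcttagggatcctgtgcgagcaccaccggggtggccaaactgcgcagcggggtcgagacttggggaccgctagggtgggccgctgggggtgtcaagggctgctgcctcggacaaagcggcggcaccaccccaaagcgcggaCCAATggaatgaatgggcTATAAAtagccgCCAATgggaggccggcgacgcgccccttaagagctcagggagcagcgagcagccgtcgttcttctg

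The Ckm window held TATATAA at position -31 from the start site, a match present in 3.24% of the 32851 promoters of this length. The Ckb window held TATAAA at position -28, which 13.6% of all promoters have. CCAAT was found at 2 positions each in Ckb and Ckmt2 and was present in 37.4% of all promoters. GGGCGG was found at 1 position in Ckmt2, against 35.7% of promoters with a match. AAGGTCA, part of the site read by estrogen-related receptors, was in none of the 3 windows and in 4.72% of all. These are matches of letters and not measured binding. Of the 6 genes, 5 had entries in the promoter table, and Ak1 had 4 start sites.

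Left ventricular libraries held 34170100 to 53672300 estimated counts. Mitochondrially encoded transcripts took 43.8 to 52.7% of the counts. Control mice TT-583 and TT-584 and HFD+mTAC mouse TT-592 had the lowest such shares (at most 46.4%, against at least 49.5% in the other 7). The same 3 libraries had the shortest average transcript lengths, which the authors' software estimates per gene and library. Cardiomyocyte markers were abundant in every mouse, with summed levels of 10191 to 13579 TPM (a transcript level per length, scaled within a library) in control and 9062 to 12373 TPM in HFD+mTAC mice over 6 genes. Skeletal muscle markers (5 genes), which matter here because that tissue also expresses Ckm and Ak1, summed to 17.0 TPM in control mouse TT-587 and 10.2 TPM in HFD+mTAC mouse TT-592, against medians of 0.339 and 0.264 TPM in the groups. Nearly all of the mean sums (3.60 TPM in control and 2.25 TPM in HFD+mTAC mice) came from Mylpf (3.46 and 2.04 TPM). Mylpf did not pass the filter on low counts and averaged 0.550 CPM in control mice.

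Compared per length, transcripts of the 6 genes fell into an upper and a lower range. Ckmt2 and Ckm averaged 453 and 436 TPM over the 10 mice, ranks 41 and 48 among the genes tested. Ak1, which encodes the cytosolic adenylate kinase of muscle, averaged 87.4 TPM (rank 274). Ak3, Slc6a8 and Ckb averaged 8.26, 7.67 and 6.41 TPM, ranks 1814, 1950 and 2236. Ckmt2, Ckm and Ak1 each lay above all 3 lower genes in 10 of 10 mice. Ckm was above Ak1 and Ak1 above Ak3 in 10 of 10 mice, whereas the other neighbours in this order were not separated in every mouse, with Ckmt2 above Ckm, Ak3 above Slc6a8 and Slc6a8 above Ckb in 7 of 10 mice each.

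**Figure D1:**
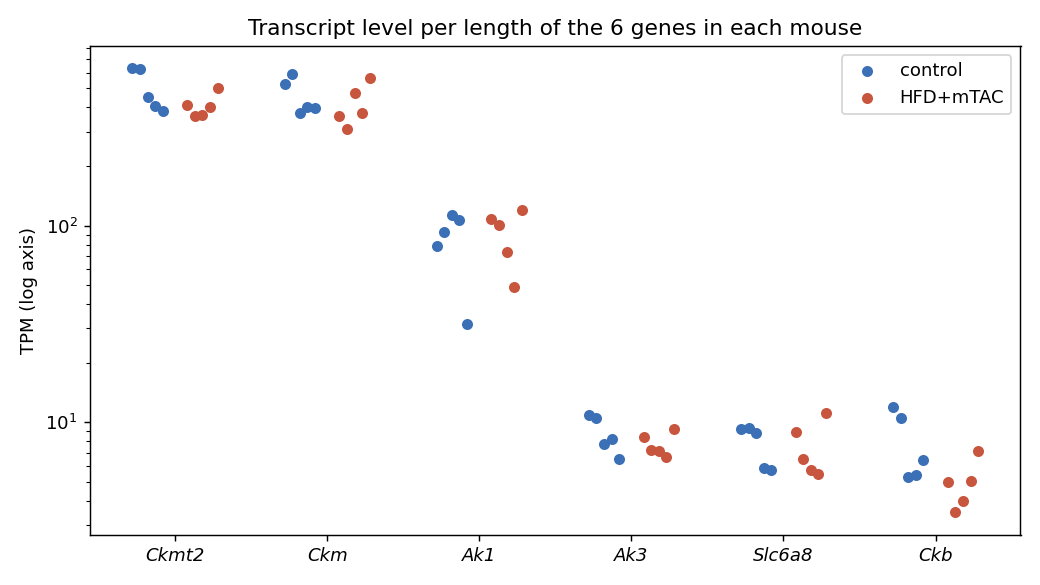
TPM (log axis) of the 6 genes, 1 point per mouse, with control mice in blue and HFD+mTAC mice in red. Ckmt2 and Ckm lie between 309 and 632 TPM, and Ak3, Slc6a8 and Ckb lie between 3.48 and 12.0 TPM.

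Ckb encodes the cytosolic creatine kinase typical of brain, smooth muscle and the fetal heart (ENSMUSG00000001270, chromosome 12 of GRCm38, 111669361 to 111672338, minus strand). Its normalized counts were 76.2, 70.8, 49.8, 55.7 and 74.5 CPM in controls (TT-583 to TT-587). In HFD+mTAC animals (TT-588 to TT-592), Ckb was read at 45.0, 43.8, 44.5, 56.5 and 50.6 CPM. All 5 HFD+mTAC mice lay below the control median and 3 of them below every control mouse, while 3 control mice lay above every HFD+mTAC mouse. The control group itself was split, since TT-585 and TT-586 fell within the range of the HFD+mTAC mice, so the groups overlapped. Means were 65.4 ± 11.9 CPM (SD, n = 5) in control and 48.1 ± 5.43 CPM (SD, n = 5) in HFD+mTAC mice. The log2 fold change was -0.44 (SE 0.13; 95% interval -0.72 to -0.17; edgeR, adjusted p = 0.319). The interval is that of a single gene and is not adjusted for the number of genes tested. The unadjusted p of 0.00434 ranked 181 among all genes, and 8.26% of all genes (3.72% in this direction) had an unadjusted p under 0.05. Ckb did not pass over all genes in edgeR or in any alternative run (adjusted p 0.0862 with DESeq2 to 0.928 with limma on the deposited TPM).

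**Figure D2:**
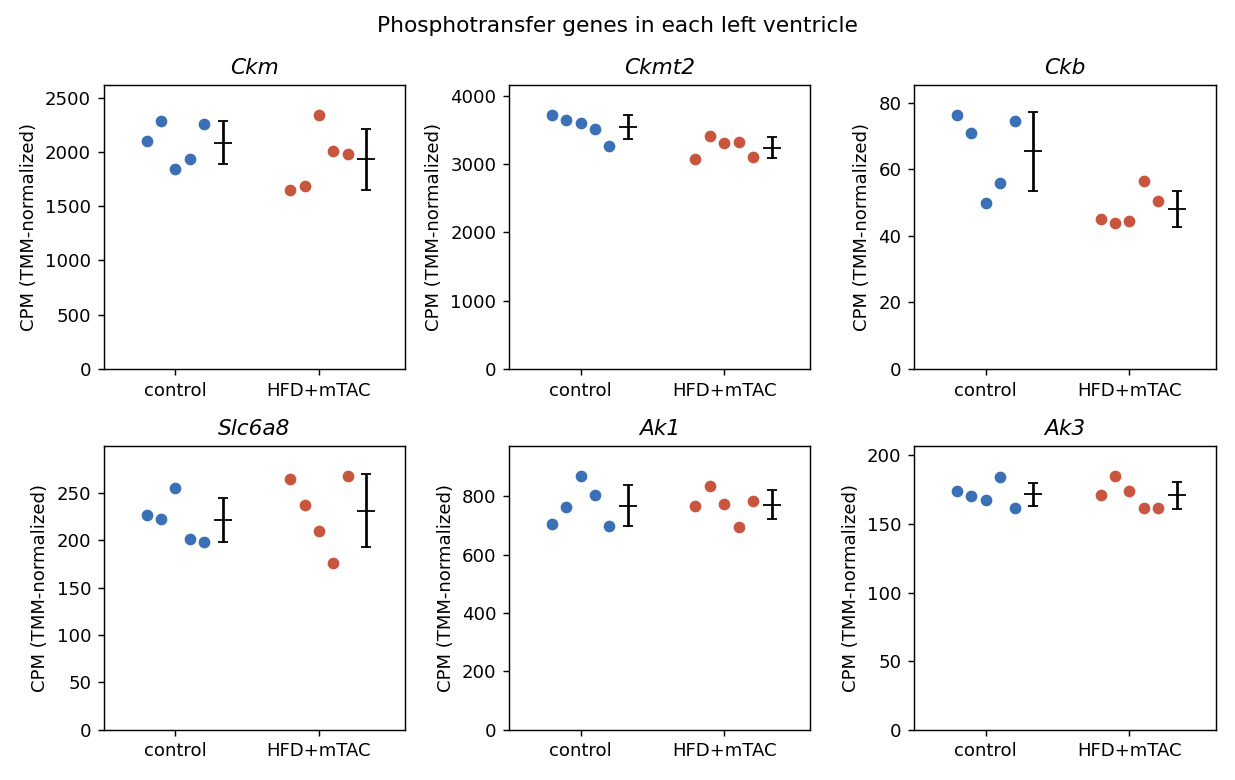
CPM of each gene by group, 1 point per mouse in the order of the mouse numbers, with the mean and SD (n = 5) beside the points. For Ckb, the 5 HFD+mTAC mice sit between 43.8 and 56.5 CPM and the control mice between 49.8 and 76.2 CPM, and for Ak1 and Ak3 the groups coincide.

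Markers of other cells that express Ckb were read beside it. The summed smooth muscle and pericyte markers ranged from 59.9 to 113 TPM in control mice and from 48.2 to 95.6 TPM in HFD+mTAC mice, with 2 of 6 tested markers above 0 and 4 below (median log2 fold change -0.33) and none passing the test. Schwann cell and neuron markers summed to 0.578 to 0.860 TPM in control and 0.406 to 0.735 TPM in HFD+mTAC mice, with 2 of 4 tested markers above 0 and Th at 0 in every mouse. Summed endothelial markers were 42.5 to 74.3 TPM in control and 38.0 to 61.8 TPM in HFD+mTAC mice, with 2 of 5 above 0. Their part in the Ckb difference was not tested. In bulk tissue, fewer cells of a type and less RNA per cell cannot be told apart.

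Ckm encodes the muscle-type creatine kinase that sits at the M-line and at the calcium pump of the sarcoplasmic reticulum (ENSMUSG00000030399, chromosome 7, 19404776 to 19422841, plus strand). Controls (TT-583 to TT-587) had 2104, 2287, 1839, 1933 and 2260 CPM. HFD+mTAC animals (TT-588 to TT-592) had 1651, 1686, 2337, 2006 and 1978 CPM. The HFD+mTAC group held both the lowest values, in TT-588 and TT-589, and the highest, in TT-590. Means were 2085 ± 197 CPM (SD, n = 5) and 1931 ± 279 CPM (SD, n = 5), a log2 fold change of -0.11 (SE 0.11; 95% interval -0.35 to 0.13; edgeR, adjusted p = 0.859). With limma, the estimate was -0.15 on log2(TPM + 1) of the deposited values and 0.0069 on log2(TPM + 1) after TPM were renormalized over the genes tested, so its direction depended on the scaling.

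Ckmt2 encodes the sarcomeric mitochondrial creatine kinase of the intermembrane space, where it charges creatine with ATP leaving the mitochondrion (ENSMUSG00000021622, chromosome 13, 91853387 to 91876885, minus strand). Control mice had 3716, 3644, 3604, 3512 and 3260 CPM, in the order TT-583 to TT-587. HFD+mTAC mice had 3070, 3407, 3314, 3327 and 3103 CPM, in the order TT-588 to TT-592. In 4 of 5 control mice Ckmt2 was above every HFD+mTAC mouse, and the groups overlapped through control mouse TT-587. The means of 3547 ± 177 and 3244 ± 149 CPM (SD, n = 5 each) gave a log2 fold change of -0.13 (SE 0.08; 95% interval -0.29 to 0.03; edgeR, adjusted p = 0.707). The mice of a group differed little for this gene, with a coefficient of variation of 4.98% in control and 4.58% in HFD+mTAC mice. The direction was the same in all 22 alternatives run, and the adjusted p was at least 0.502 in each.

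The make-up of the creatine kinase transcripts within a mouse was read from TPM and was not tested, since it is built from the genes chosen. Ckb made up 1.02, 0.851, 0.633, 0.663 and 0.822% of the summed Ckm, Ckmt2 and Ckb TPM in controls (TT-583 to TT-587). In HFD+mTAC animals (TT-588 to TT-592) its share was 0.640, 0.518, 0.475, 0.646 and 0.667%. The share was thus lower on average in HFD+mTAC mice, 0.589% ± 0.0862 (SD, n = 5) against 0.799% ± 0.158 (SD, n = 5), with overlap between the groups. Ckm outnumbered Ckb by 61.5 ± 12.2 times in control and 86.4 ± 18.5 times in HFD+mTAC mice (SD, n = 5 each), again with overlap. A higher mean share of the brain-type transcript was therefore not seen in HFD+mTAC mice. The ratio of Ckmt2 to Ckm was 1.09 ± 0.115 in control and 1.01 ± 0.169 in HFD+mTAC mice (SD, n = 5 each), a difference below the spread of either group.

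Slc6a8 encodes the creatine transporter, through which heart muscle, which takes up most of its creatine, imports it (ENSMUSG00000019558, chromosome X, 73673150 to 73682502, plus strand). Control mice had 227, 223, 256, 202 and 198 CPM, and HFD+mTAC mice had 264, 237, 210, 176 and 268 CPM, in the order of the mouse numbers. The HFD+mTAC mice spanned the wider range and held both the lowest and the highest values. The log2 fold change was 0.06 (SE 0.12; 95% interval -0.20 to 0.32; edgeR, adjusted p = 0.935), on means of 221 ± 23.1 and 231 ± 38.6 CPM (SD, n = 5 each). With limma on the deposited TPM it was -0.06, so its direction depended on the scaling.

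Ak1 (ENSMUSG00000026817, chromosome 2, 32621758 to 32635058, plus strand) had 705, 763, 869, 805 and 698 CPM in controls (TT-583 to TT-587). In HFD+mTAC animals (TT-588 to TT-592) it had 767, 833, 774, 695 and 785 CPM. Means of 768 ± 71.5 and 771 ± 49.4 CPM (SD, n = 5 each) gave a log2 fold change of 0.0058 (SE 0.09; 95% interval -0.18 to 0.19; edgeR, adjusted p = 0.994), that is, between 0.883 and 1.14 times the control level. Hemoglobin and Alas2 transcripts were read beside Ak1, which red cells also contain. These 5 erythroid markers summed to 877 TPM in TT-585 and 861 TPM in TT-591 and to at most 480 TPM in the other mice. In CPM, Ak1 was highest of the 10 mice in TT-585 (869) and lowest in TT-591 (695), the latter close to TT-587 (698). The part of red cells in the Ak1 values was not tested.

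The TPM of Ak1 varied more than its counts, since TPM divides by an average transcript length that varied 2.81-fold between mice. The deposited length was 1554, 1466, 1132, 1061 and 2985 bases in controls (TT-583 to TT-587), and 1095, 1070, 1412, 1971 and 1128 bases in HFD+mTAC animals (TT-588 to TT-592). For the other 5 genes the longest value was at most 1.47 times the shortest. Ak1 accordingly ranged from 31.6 TPM in TT-587 to 113 TPM in TT-585 among control mice, and from 48.8 to 119 TPM among HFD+mTAC mice. Its log2 fold change was 0.14 with limma on log2(TPM + 1) of these deposited values (adjusted p = 0.987), 0.30 on renormalized TPM (adjusted p = 0.905) and 0.19 in edgeR with lengths as an offset (adjusted p = 0.907). GENCODE M21 lists 6 transcripts of Ak1, from 359 to 2085 bases, and the deposited tables do not separate them. The deposited lengths are effective lengths that carry corrections for bias, and the 2985 bases of TT-587 exceed the longest listed transcript. The longest deposited values of Ak3 (3373 against 2809 bases) and Slc6a8 (4916 against 3964 bases) also did. Why the Ak1 length varied was not tested.

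**Figure D3:**
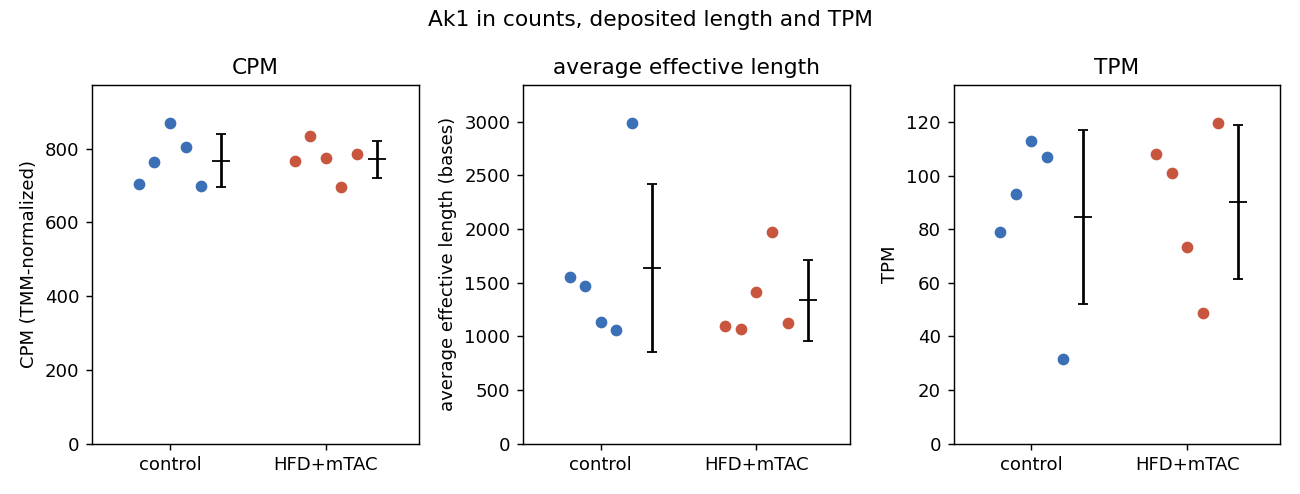
Ak1 in each mouse as CPM, as deposited average effective length in bases and as TPM, with the mean and SD (n = 5) beside the points of each group. Control mouse TT-587 has the longest length (2985 bases) and the lowest TPM (31.6), although its CPM of 698 is close to that of TT-583.

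Ak3 encodes the adenylate kinase of the mitochondrial matrix, which uses GTP from the citric acid cycle (ENSMUSG00000024782, chromosome 19, 29020833 to 29047961, minus strand). Control mice had 174, 171, 167, 184 and 162 CPM, and HFD+mTAC mice had 171, 185, 174, 162 and 162 CPM, in the order of the mouse numbers. The ranges nearly coincided, and the log2 fold change was -0.0059 (SE 0.07; 95% interval -0.16 to 0.15; edgeR, adjusted p = 0.993). This interval corresponds to 0.895 to 1.11 times the control level, the narrowest of the 6 genes on the log2 scale. In the annotation, Ak3 overlaps Cdc37l1 on the opposite strand over 5849 bases (923 to 1961 estimated counts per mouse). The libraries were stranded, and whether the authors' counting used strand was not given in the sources used here. The ratio of Ak1 to Ak3 in TPM was 9.71 ± 4.01 in control and 11.4 ± 2.71 in HFD+mTAC mice (SD, n = 5 each), whereas in counts, which leave out the Ak1 lengths, it was 4.48 and 4.51 on average.

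**Figure D4:**
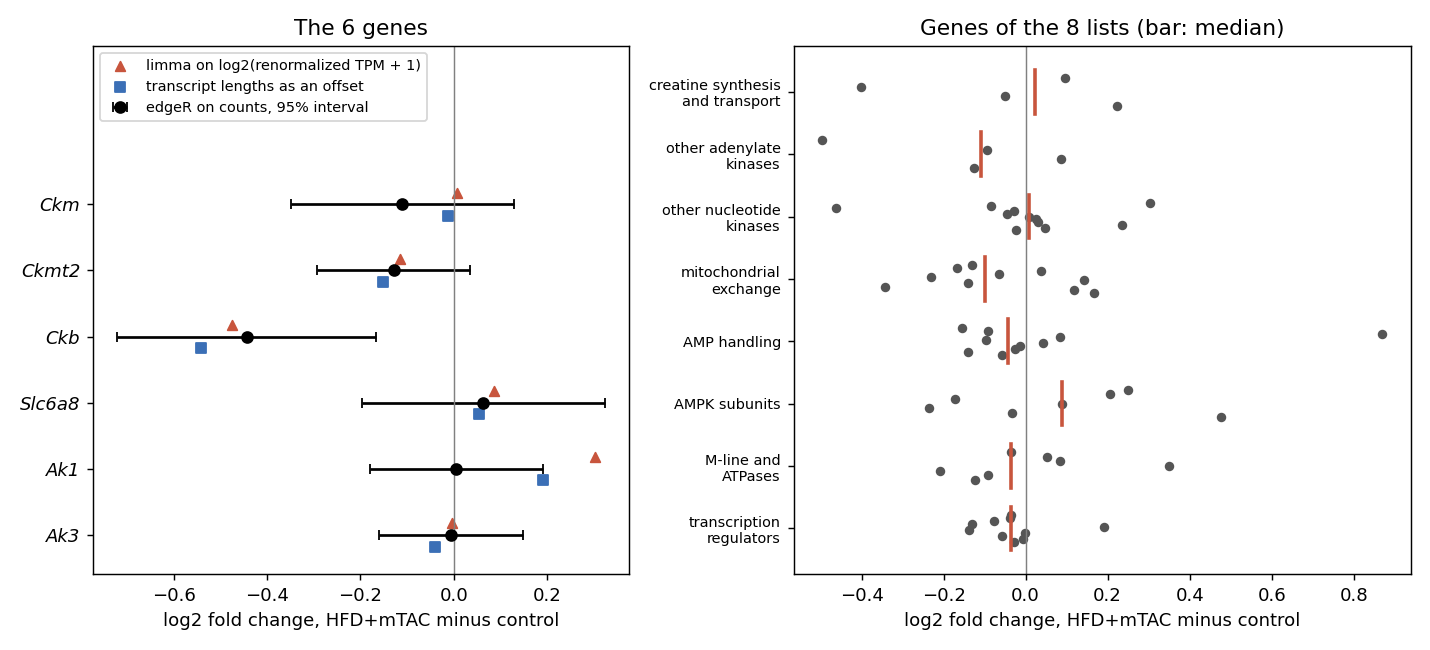
Left, log2 fold changes of the 6 genes from edgeR with 95% intervals, and the estimates from limma on renormalized TPM (triangles) and with transcript lengths as an offset (squares). Right, log2 fold changes of the tested genes of 8 related lists, with the median of each list as a bar. Among the 6 genes, only the edgeR interval of Ckb lies on 1 side of 0, from -0.72 to -0.17, and the Ak1 point from renormalized TPM lies at 0.30.

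In TPM, the 3 libraries with the lowest mitochondrial share stood apart for these genes and for the genes tested as a whole. The genes tested held 16.8, 18.3 and 16.2% of the deposited TPM in TT-583, TT-584 and TT-592, and at most 14.0% in the other 7 mice. The share of all genes that were highest in the same 3 mice was not counted. TT-583, TT-584 and TT-592 had the 3 highest TPM values of the 10 mice for Ckm, Ckmt2, Ckb, Slc6a8 and Ak3, that is, for 5 of the 6 genes, whereas in CPM this held for 0 of 6. The lowest Ckm level among these 3 mice was 524 TPM, against at most 470 TPM in the other 7. Of the 3, 2 were control mice and 1 was an HFD+mTAC mouse. With the library's length shift as a covariate, an alternative chosen after the data were seen, the Ckb log2 fold change was -0.37 (adjusted p = 0.661 from edgeR).

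Variation among the mice of a group was compared for the 15 pairs of these genes, as deviations of log2(CPM + 1) from the group mean over 10 mice. Ckb and Ak1 deviated in opposite directions, with Pearson's r = -0.91 (exact permutation within groups, p = 0.00167, adjusted over the 15 pairs 0.025) and Spearman's rho = -0.92 (p = 0.00306 by the same permutation, adjusted 0.0458). Without the 2 mice farthest from the median of Ckb, TT-585 and TT-583, r was -0.84. It was -0.96 among control and -0.81 among HFD+mTAC mice. On the log2(TPM + 1) scale r was 0.05 with the deposited values and -0.35 with renormalized TPM, so the relation was strong in counts only. The share of all gene pairs as strongly related in these libraries was not counted. The permutation does not allow for library differences, such as those in mitochondrial share and length, that many genes can follow together. A link between Ckb and Ak1 in particular was therefore not tested. The other 14 pairs did not pass (smallest adjusted p = 0.364, exact permutation), among them Ckm with Ckmt2 at r = 0.02 (p = 0.964) and rho = 0.03 (p = 0.95), where r was -0.39 without TT-590 and TT-588. Shared variation of the major creatine kinases was not detectable with 10 mice.

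**Figure D5:**
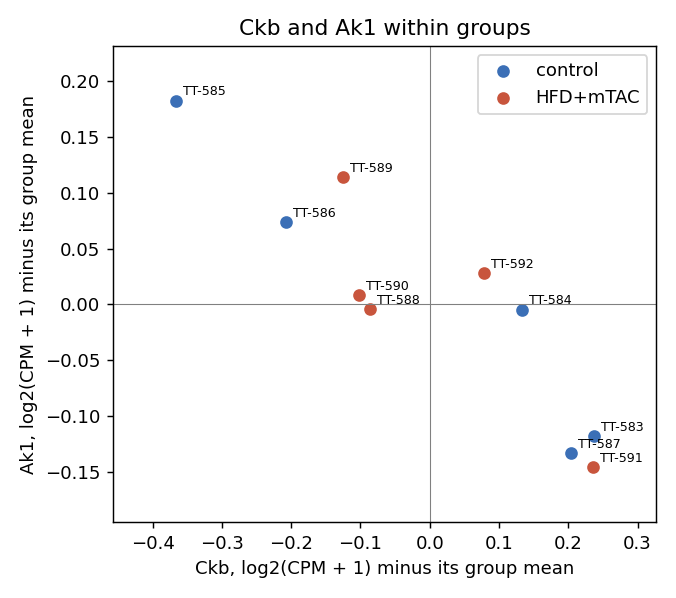
Ckb against Ak1 in each mouse, both as log2(CPM + 1) minus the mean of the mouse's own group (x and y axes). Control mouse TT-585 is lowest for Ckb and highest for Ak1, and TT-583, TT-587 and TT-591 lie at the opposite corner.

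For each gene, the 2 of the other 10104 genes with a mean of at least 5 CPM that followed it most closely over the same deviations in 10 mice are given as a description. Ckm was closest to Map2k2 (r = 0.98) and Cox6a1 (r = 0.98), the latter a subunit of cytochrome c oxidase. Ckmt2 was closest to Gpatch11 (r = 0.95) and Mea1 (r = 0.94). Ckb was closest to Malsu1 (r = 0.98) and Tm6sf1 (r = 0.95). Slc6a8 was closest to Mef2d (r = 0.97), a transcription factor of muscle, and Fbxo32 (r = 0.97), the muscle ubiquitin ligase atrogin-1. Ak1 was closest to Slc36a2 (r = 0.98) and 1600014C10Rik (r = 0.96), and Ak3 to Gm14326 (r = 0.94) and Psmd14 (r = 0.92), a proteasome subunit. These are the highest of many values, each over 10 mice that share their libraries, and the smallest edgeR adjusted p between the groups among these genes was 0.666.

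Related genes of the pathway were read from 8 lists with 67 genes in all, of which 63 were tested and 0 passed edgeR's test. Of the 63, 4 had an unadjusted edgeR p under 0.05, as had 8.26% of all genes tested. The median log2 fold change of the 63 was -0.03 against 0.0016 over all genes, with 24 genes above 0 and 39 below. With limma on log2(TPM + 1), the split was 16 and 47 on the deposited TPM (where the median of all genes was -0.03) and 31 and 32 on renormalized TPM, so it depended on the scaling. With DESeq2, the smallest adjusted p among the list genes named here was 0.291, for Slc25a4.

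Creatine synthesis and other transport were at low levels in both groups. Gatm, the first enzyme of creatine synthesis, had 5.07 ± 1.54 CPM in control and 3.82 ± 0.879 CPM in HFD+mTAC mice (SD, n = 5 each), with a log2 fold change of -0.40 (adjusted p = 0.724 from edgeR). Gamt, the second enzyme, had 7.23 ± 1.53 and 6.97 ± 1.36 CPM (log2 fold change -0.05, adjusted p = 0.969), and the transporter Slc16a12 had 5.23 ± 1.24 and 5.57 ± 1.25 CPM (0.10, adjusted p = 0.945). Ckmt1, the ubiquitous mitochondrial creatine kinase, was nearly absent at 0.345 ± 0.144 and 0.398 ± 0.254 CPM. Of this list, 2 genes were above 0 and 2 below.

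Among the other adenylate kinases, 4 of 7 were tested, with 1 above 0 and 3 below, and Ak5, Ak7 and Ak8 were at or near 0 counts. Ak4, a matrix form close to Ak3, had a log2 fold change of 0.09 and Ak6 of -0.09. The other nucleotide kinases, which pass phosphate between nucleotides, split evenly, with 6 of 11 above 0 and 5 below. Nme5 and Nme7 were at -0.46 and 0.30 on the log2 scale at group means under 5 CPM, Nme3 was at -0.05 and Dtymk at 0.23 (adjusted p = 0.689 to 0.965 from edgeR for these 4).

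Genes for the exchange of ATP, ADP and phosphate across the mitochondrial membranes held 3 of the 4 unadjusted edgeR p-values under 0.05, which 8.26% of all genes had. Slc25a4, the adenine nucleotide translocator of heart and muscle, had 8706 ± 747 CPM in control and 7419 ± 725 CPM in HFD+mTAC mice (SD, n = 5 each), with a log2 fold change of -0.23 (SE 0.10; edgeR, adjusted p = 0.546). Its values were 8800, 9598, 8257, 7701 and 9172 CPM in control mice, and 6460, 7499, 7933, 8250 and 6952 CPM in HFD+mTAC mice, so that only control mouse TT-586 and 2 HFD+mTAC mice, TT-590 and TT-591, made the groups overlap. Vdac2, a channel of the outer membrane, had 709 ± 25.5 and 631 ± 40.8 CPM (SD, n = 5 each, log2 fold change -0.17, adjusted p = 0.568 from edgeR). Every HFD+mTAC mouse lay below every control mouse for Vdac2, which held for 0.887% of all genes in this direction, but with limma its estimate was -0.03 on the deposited TPM and 0.12 on renormalized TPM. Slc25a23, an ATP-magnesium carrier, had a log2 fold change of 0.17 (adjusted p = 0.601) and Slc25a24 of 0.12 (adjusted p = 0.895), the latter at -0.03 on the deposited TPM. Of the 10 genes of this list, 4 were above 0 and 6 below.

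Enzymes that make or remove AMP had 3 of 10 tested genes above 0 and 7 below. Nt5e and Adsl were at -0.16 and -0.14 on the log2 scale, Nt5c of 0.08 and Nt5c1a of 0.87 at 1.33 ± 0.995 CPM in control and 2.44 ± 2.03 CPM in HFD+mTAC mice (SD, n = 5 each), where 3 mice of both groups above 3 CPM carried the mean (adjusted p = 0.773 from edgeR). Of the 7 AMPK subunits, 4 were above 0 and 3 below. Prkab1, a scaffold subunit, had 63.0 ± 2.87 and 53.4 ± 8.79 CPM (SD, n = 5 each, log2 fold change -0.24, adjusted p = 0.592 from edgeR), with HFD+mTAC mouse TT-592 at 66.4 CPM, within the control range. The nucleotide-binding subunits Prkag1, Prkag2 and Prkag3 were at -0.17, 0.21 and 0.25 on that scale (edgeR, adjusted p = 0.621, 0.723 and 0.771).

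Sites and consumers of creatine kinase were read from 7 genes, 3 above 0 and 4 below. Myom1, the M-line protein to which muscle creatine kinase is anchored, had a log2 fold change of 0.08 (adjusted p = 0.952 from edgeR). The myosin heavy chains Myh6 and Myh7 had log2 fold changes of -0.21 and 0.35 (edgeR, adjusted p = 0.778 and 0.862). Of 10 transcription regulators of muscle creatine kinase and energy genes, 1 was above 0 and 9 below, with a median of -0.04, and with limma 3 were above 0 on both the deposited and the renormalized TPM. The 1 above 0 was Mef2d at 0.19 (adjusted p = 0.671), and the smallest p-values below 0 were those of Mef2c at -0.14 (adjusted p = 0.722) and Ppargc1a at -0.13 (adjusted p = 0.862).

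The other marker lists held no gene past edgeR's test. All 6 cardiomyocyte markers had estimates below 0 in edgeR and on the deposited TPM, and 5 of 6 on renormalized TPM (edgeR median log2 fold change -0.20). An unadjusted edgeR p under 0.05 was found for 2 of the 6, and for 8.26% of all genes tested. These markers stood beside the lower Ckm and Ckmt2 estimates, and their part in these was not tested. Fibroblast markers had 3 of 5 genes above 0 (1 of 5 on the deposited and 4 of 5 on renormalized TPM) and summed to 88.1 to 155 TPM in control and 73.8 to 120 TPM in HFD+mTAC mice. Macrophage markers had 4 of 4 above 0 (3 of 4 on either TPM scale) and summed to 4.44 to 8.20 and 4.68 to 7.68 TPM. Erythroid markers had 5 of 5 below 0. Adipocyte markers summed to 2.36 to 5.38 and 2.54 to 4.27 TPM, nearly all from Cidea, which heart muscle also expresses, with Ucp1 at 0. Of the atrial markers, only Nppa passed the filter, with a log2 fold change of -0.54 (adjusted p = 0.659).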

How the data were processed

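Polyadenylated left ventricular RNA of 10 mice was sequenced (stranded kit), 1 library per mouse. The authors quantified reads with salmon on GENCODE transcripts of GRCm38, with corrections for sequence, GC and position bias that enter the effective lengths, and summed them to genes with tximport. The submitters' processing notes name Salmon 1.6.0 and also hg38, a human build, although the gene symbols are of mouse form. The labels and the methods differ on read layout (single-end or paired-end). The deposited expected counts are estimated and not normalized (20.1% are not whole). The deposited TPM values are per length and per library, and effective transcript lengths in bases were given beside them. TPM equals counts over length, scaled, within a relative difference of 0.000507.

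After rounding, edgeR 4.0.16 in R 4.3.3 gave the tests (quasi-likelihood, TMM normalization, Benjamini-Hochberg adjustment). The genes tested were nuclear, protein-coding and read at 1 count or more in at least 9 of 10 mice, after the filter in the study's methods. The symbols of 838 genes did not match the annotation (GENCODE M21 and RefSeq) and were left out. DESeq2 1.42.0 and limma 3.58.1 on log2(TPM + 1) or log2(TPM + 0.1), after TPM were renormalized over the genes tested, were alternatives, as were other normalizations, filters and biotypes, lengths as an offset, the robust fit and omission of each mouse. Limma on log2(TPM + 1) of the deposited TPM was added after the data were seen. The genes tested held 13.5 to 18.3% of the deposited TPM in control and 12.1 to 16.2% in HFD+mTAC mice. The annotation is older than the authors' (M25). Correlations used all 14400 permutations within groups (Python 3.11.15). Groups came from the disease-state labels. Mouse numbers do not pair mice, no batch is given, and edgeR's p-values set the difference between groups against the spread between mice. The promoters are those of RefSeq on GRCm38.p6.

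The 6 genes, the lists and the markers were chosen with earlier results of these data known. Named list genes are the 2 with the smallest p in each direction, and lists of up to 4 genes are named whole. Some of these are not reported here. Depth gives 579 to 1587 counts per mouse for Ckb, the lowest of the 6 genes, and at least 2058 for the others. The fits were tested on simulated counts first.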

Additional observations from a re-analysis of the deposited data

Results flagged for a closer look

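The average transcript length of Ak1 in control mouse TT-587 was 2985 bases, and the next longest among control mice was 1554 bases. This gap is 0.744 of the range of the 5 control mice, above the critical value of 0.71 for 5 samples. It was the only flag among 42 groups of values examined (counts, TPM and lengths of the 6 genes and the 3 ratios), and chance flags about 1 in 20 groups. The CPM of Ak1 in this mouse was 698, within the range of the other mice, and its TPM of 31.6 was the lowest of the 10.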

How the results depend on the processing

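None of the 6 genes passed edgeR's, DESeq2's or limma's threshold under any of the 22 alternatives run for each. The direction held in all 22 for Ckmt2 and Ckb. For Ckm it turned with limma on log2(TPM + 1) and log2(TPM + 0.1) after renormalization over the genes tested, to 0.0069 in both, and was -0.15 on the deposited TPM, an alternative chosen after seeing the data. On the deposited TPM, Slc6a8 turned to -0.059. For Ak1, whose estimate was 0.0058, it was -0.012 with the library length shift as covariate and ran from -0.030 to 0.054 when 1 mouse was left out. For Ak3, at -0.0059, it was 0.00074 with upper-quartile normalization and ran from -0.042 to 0.020 when 1 mouse was left out. Leaving out 1 mouse moved Ckb between -0.53 (without TT-585) and -0.38 (without TT-583), Ckmt2 between -0.16 and -0.11, Ckm between -0.19 and -0.06, and Slc6a8 between 0.0046 (without TT-592) and 0.14 (without TT-591). The count of genes called, 8 (6 higher and 2 lower), was 120 with DESeq2 (62 and 58), 1 with limma on log2(TPM + 1) and on log2(TPM + 0.1) of renormalized TPM, 0 with limma on the deposited TPM (590 at an unadjusted p under 0.05), 1 with lengths as an offset and 4 with the length covariate, for which the cause was not tested. It ran from 1 to 9 when 1 mouse was left out, and it was 1 to 3 without TT-584, TT-585, TT-586, TT-587, TT-588, TT-589, TT-590 or TT-592, each with fewer samples. The 3 ratios moved by less than 1 SD in all 12 alternatives for each, although the difference in Ckmt2 to Ckm was 0.014 with medians in place of means. No paired analysis was possible because the labels number mice without shared replicate numbers between groups.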
